A study of Mus musculus with 10 samples.

Results

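The Sox family of transcription factors was examined in the cortical hem (CH), the signaling center at the medial edge of the embryonic telencephalon. Its 10 members here, Sox1, Sox2, Sox3, Sox4, Sox5, Sox6, Sox8, Sox9, Sox11 and Sox21, were taken by symbol from a count table of 52227 genes. Laser capture was used to collect the CH at embryonic day 13.5, and RNA was sequenced for 5 wild-type embryos and 5 Lmx1a-/- embryos, with the tissue of 1 embryo in 1 library. The Lmx1a-/- embryos were homozygous for the drJ (dreherJ) allele, which the study treats as a null, and neither genotype received a treatment. The mice had a mixed background, embryos of both sexes were used, and the edges of the CH were set by Lmx1a immunostaining of neighboring sections. All cell types within those edges entered the RNA, so fewer cells of a type and less RNA per cell cannot be told apart.

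Sox proteins bind DNA through a high-mobility-group domain related to that of Sry, and they fall into groups by sequence. The SoxB1 proteins Sox1, Sox2 and Sox3 keep neural cells in the progenitor state, and the SoxB2 protein Sox21 acts largely against them as a repressor. The SoxC proteins Sox4 and Sox11 act in cells that leave the cycle and become neurons. The SoxD proteins Sox5 and Sox6 have no activation domain of their own and act beside other factors, and the SoxE proteins Sox8 and Sox9 are known for radial glia, glial cells and, outside the brain, cartilage.

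Library totals lay between 19145952 and 36462780 counts, of which mitochondrial genes took 20.6% to 27.6%. The 21664 genes with 10 counts or more in 3 or more libraries were tested by the quasi-likelihood method of edgeR, and a gene passed when its false discovery rate (FDR, adjusted by Benjamini-Hochberg over all of them) was under 0.1. Levels are normalized CPM, counts relative to a library total adjusted by the trimmed mean of M values (TMM), and are given as mean ± SD over 5 embryos. Lmx1a itself was transcribed in both genotypes (45.6 to 90.8 CPM in wild-type libraries, 89.9 to 145 CPM in Lmx1a-/- libraries), which does not check the labels because the drJ allele is still transcribed. The CH marker list (10 genes) summed to 1627 to 2831 CPM in the wild-type libraries and to 1832 to 2252 CPM in the others. Past the threshold, 5 of its genes were lower and 1 was higher, and the median log2 fold change was -0.52. The higher gene was Lmx1a itself (log2 fold change 0.68, edgeR FDR = 0.0658). Wild-type embryo 3 stood apart from the other wild-type libraries, with the lowest sum of CH markers (1627 CPM) and of choroid plexus markers (147 CPM). Transcripts of the sex chromosomes were spread unevenly: Xist was at 4399 to 5169 CPM in wild-type embryos 2 to 5 and at or below 1.15 CPM in wild-type embryo 1 and all Lmx1a-/- embryos, so genotype and sex cannot be told apart except through wild-type embryo 1.

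All 10 members passed the filter on low counts. Of them 1, Sox5, rose in Lmx1a-/- CH, and none fell. Over all genes tested, 4.02% passed the threshold, 1.72% as higher and 2.29% as lower (background shares), and the count of 1 member among 10 concerns Sox5 alone. No member had an unadjusted edgeR p under 0.05 in the lower direction, and 3 did in the higher direction (Sox3, Sox5 and Sox9). Over all 21664 genes tested, 1885 had such a p as lower and 1660 as higher. With only 10 members, the absence of a lower one is not a result about the family. DESeq2 and edgeR's likelihood ratio test also called 0 members lower. The fitted log2 fold change was above 0 for 9 of the members and below 0 for Sox8, with a median of 0.22 over the members. Over all genes tested it was above 0 for 10702 and below 0 for 10962, with a median of -0.005. In a fit of wild-type embryo 1 and the Lmx1a-/- embryos only, Sox2 (-0.051), Sox4 (-0.032) and Sox11 (-0.017) were below 0 and Sox8 (0.41) above. Members also varied together across libraries, so the count of signs is not a result about the family.

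**Figure D1:**
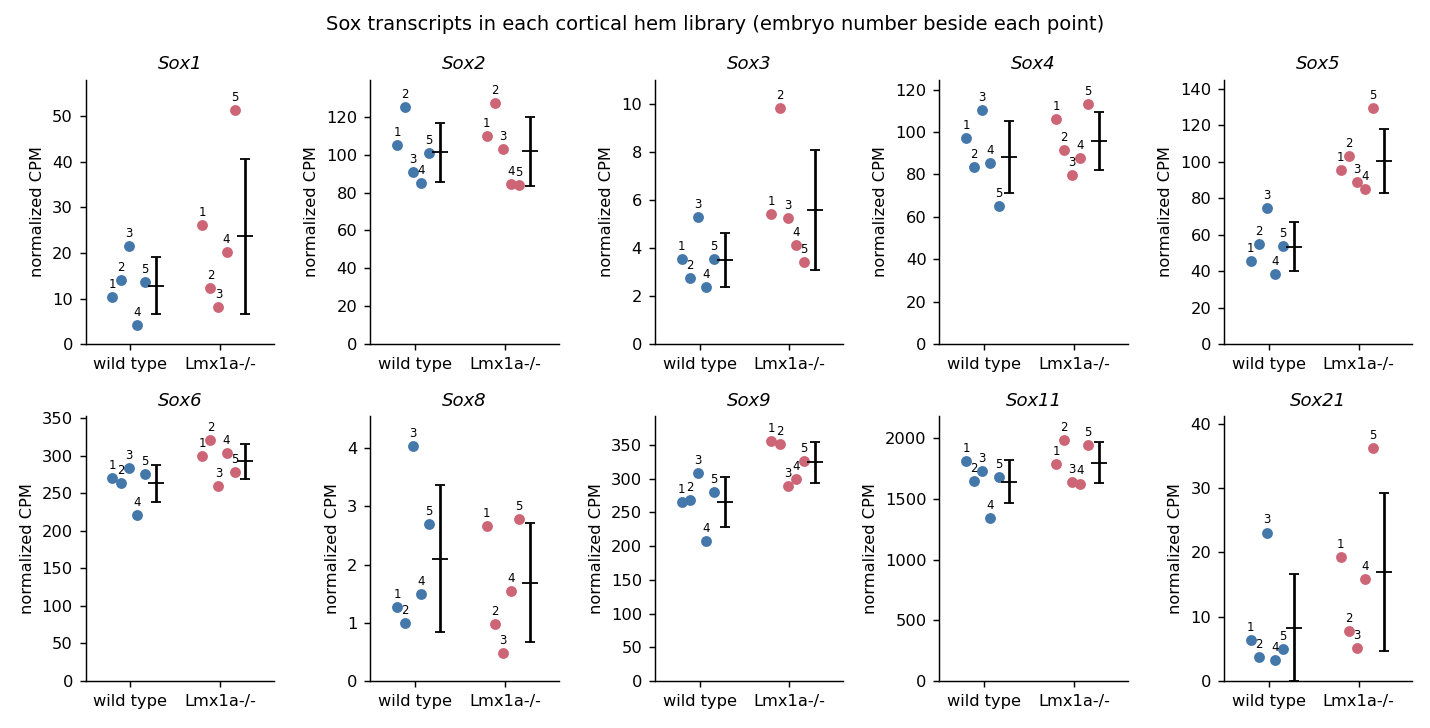
Normalized CPM of each Sox member (vertical axes, each from 0) in the 5 wild-type (blue) and 5 Lmx1a-/- (red) libraries, with the embryo number beside each point and the mean and SD as black bars. Sox5 is the member whose genotypes do not overlap, and wild-type embryo 3 is the highest wild-type point for Sox1, Sox3, Sox4, Sox5, Sox6, Sox8, Sox9 and Sox21.

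The SoxD genes held the difference that passed. Sox5 (ENSMUSG00000041540, GRCm38 chr6:143828425-144781977, minus strand) encodes a factor known for the timing of deep-layer neuron generation in the neocortex. Its level was 45.8, 54.9, 74.7, 38.5 and 53.7 CPM in wild-type embryos 1 to 5 and 95.3, 103, 88.7, 85.2 and 129.6 CPM in Lmx1a-/- embryos 1 to 5. Every Lmx1a-/- library was therefore above every wild-type library, as was the case in either direction for 4.44% of all genes tested, and no other member showed such a separation. The mean rose from 53.5 ± 13.6 to 100.4 ± 17.7 CPM, a change of 87.6%. The log2 fold change was 0.91 (SE 0.16, 95% confidence interval 0.55 to 1.26, edgeR quasi-likelihood FDR = 0.0111), and Sox5 ranked 164 of all genes by p. Behind these values lay 742 to 3725 counts per library.

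The Sox5 difference was read against the libraries and markers that moved with genotype. Without wild-type embryo 3 the log2 fold change was 1.05 (edgeR FDR = 0.00128), and in the fits that left out 1 embryo it ran from 0.80 to 1.05 and passed each time. Wild-type embryo 1, which carried Y-linked transcripts as all Lmx1a-/- embryos did, had 45.8 CPM, below each of the 5 Lmx1a-/- libraries. Restricting the fit to these 6 libraries gave a log2 fold change of 1.13 (edgeR FDR = 0.0988), with a lone wild-type library that is assumed to vary as the Lmx1a-/- libraries do. The call was lost with the Xist level as a covariate (1.14, edgeR FDR = 0.269) and with the mean level of choroid plexus markers as covariate (0.59, edgeR FDR = 0.997), and both covariates followed genotype closely (r = -0.829 and -0.827 over 10 libraries). Choroid plexus markers summed to 147 to 508 CPM in wild-type libraries and to 160.2 to 240.2 CPM in Lmx1a-/- libraries, and their part in the Sox5 difference was not tested.

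**Figure D2:**
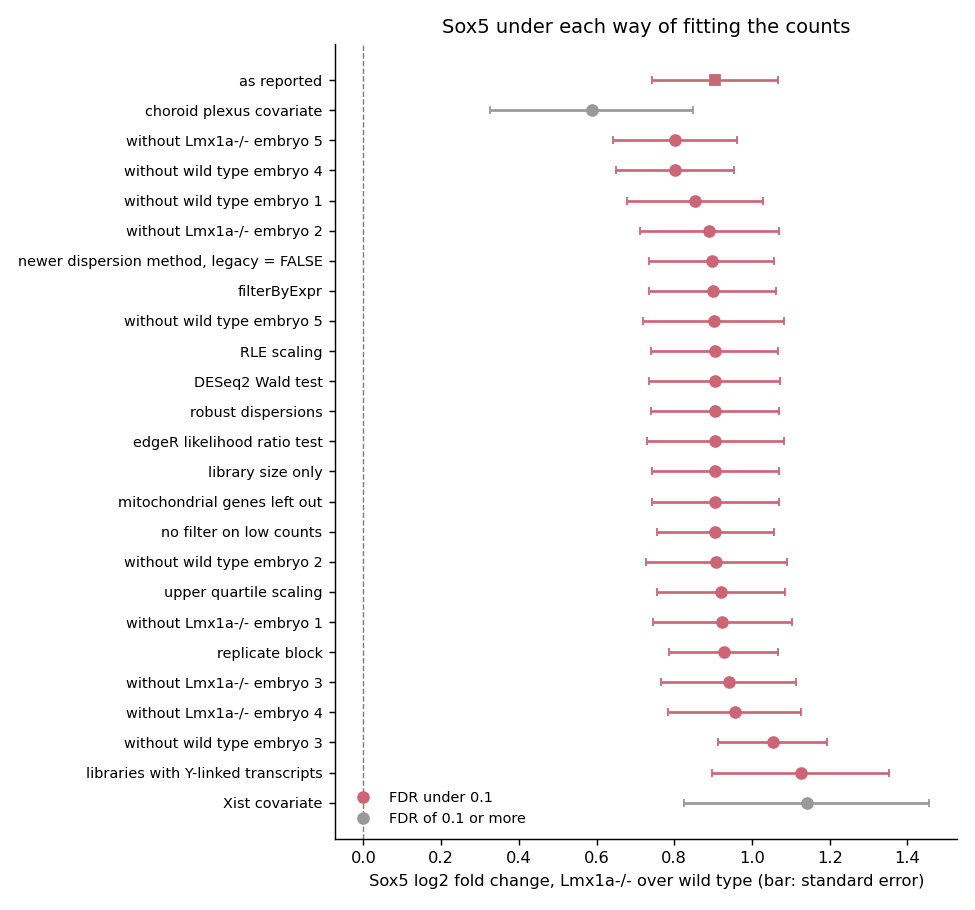
The log2 fold change of Sox5, Lmx1a-/- over wild type (horizontal axis), with its standard error, in the reported fit (square) and under each alternative, in red where the FDR was under 0.1 and in gray otherwise. The estimate stayed above 0 in each fit shown and lost the call with the choroid plexus (0.59) or Xist (1.14) covariate.

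The sequence upstream of Sox5, the member that rose, is shown because no other member passed the threshold. RefSeq holds promoter windows, from 250 bases before to 50 bases after a start site, for 8 of the 10 members (13 windows, GRCm38.p6). The Sox5 window covers chr6:143947057-143947356 on the minus strand. It surrounds the start of a shorter form: 3 of the 7 coding GENCODE transcripts start within 20 bases of its start site. The farthest start among these 7 lies 262462 bases upstream, and the annotated gene extends farther still. Counts per gene do not tell which start was used. Capitals mark the letters ACAAT, the core of the sites that Sox proteins bind, searched on both strands.
Sox5: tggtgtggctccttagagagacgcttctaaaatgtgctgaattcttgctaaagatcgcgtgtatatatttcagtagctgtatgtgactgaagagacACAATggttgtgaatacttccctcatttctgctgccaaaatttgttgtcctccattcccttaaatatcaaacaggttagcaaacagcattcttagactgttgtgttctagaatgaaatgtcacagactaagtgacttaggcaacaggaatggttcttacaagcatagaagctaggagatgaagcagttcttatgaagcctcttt
The window holds 1 match, 154 bases before the start site (position -154), and 31% of the 32851 promoter windows of RefSeq hold at least 1. The letters TAATTA, a core bound by LIM-homeodomain proteins, the class to which Lmx1a belongs, were in none of the 13 windows of the members and in 5.29% of all windows. The Sox5 window is poor in G and C (39.7%, with a median of 52.7% over all windows), as are some of the 6 windows of Sox6 (36.7% to 63.3%). The Sox4 window holds 52%, that of Sox11 58.7%, and those of Sox1, Sox2, Sox8 and Sox21 hold 65.7% to 70.7%. A match is no evidence of binding, and a missing one concerns only this window.

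Sox6 (GRCm38 chr7:115470872-116038796), the partner of Sox5 in the SoxD group, differed far less. It had 270.4, 263, 284, 221 and 276 CPM in the wild-type embryos and 299, 321, 259.9, 303 and 278 CPM in the Lmx1a-/- embryos 1 to 5. The genotypes overlapped, and the log2 fold change of 0.15 (SE 0.08, 95% interval -0.025 to 0.33) did not pass (edgeR FDR = 0.385). The ratio of Sox5 to Sox6 CPM within a library was 0.170, 0.209, 0.263, 0.174 and 0.195 in wild-type embryos and 0.319, 0.322, 0.341, 0.281 and 0.466 in Lmx1a-/- embryos. The 2 sets of ratios do not overlap, though the gap is small (0.263 in wild-type embryo 3, 0.281 in Lmx1a-/- embryo 4). Because Sox6 varied little, the ratio largely repeats the separation of Sox5 and is no separate support for it. Sox13, the remaining SoxD gene, averaged 9.98 ± 2.06 and 12.5 ± 2.32 CPM in wild-type and mutant CH (edgeR FDR = 0.407).

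A transcript that lies within Sox6 on the opposite strand passed the threshold. Gm45025 shares no exon base with Sox6 and was at 13.3, 13.2, 15.3, 13 and 21.5 CPM in the wild-type embryos and at 24.5, 24, 22, 30 and 27.2 CPM in the Lmx1a-/- embryos. Its genotypes did not overlap, and the log2 fold change was 0.74 (SE 0.15, edgeR FDR = 0.0246). The strand setting of the read counting is not given in the sources used here, so reads from the introns of Sox6 and reads from Gm45025 cannot be told apart. Within Sox5, the antisense gene Sox5os1 covers 9.25% of the exon bases but averaged only 0.178 and 0.368 CPM in wild-type and mutant CH. Gm44068, on the same strand within Sox5 without a shared exon base, averaged 2.14 ± 0.99 and 3.9 ± 1.54 CPM (log2 fold change 0.86, edgeR FDR = 0.312). The remaining transcripts that overlap Sox5, Sox6 or Sox8 (Sox5os2 to Sox5os5, Sox5it, Sox6os and 2810468N07Rik) averaged at most 1.52 CPM in either genotype, and those that were tested did not pass.

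Among SoxE genes, Sox9 (GRCm38 chr11:112782224-112787760), a factor of radial glia and of the switch from neurons to glia, came nearest to the threshold after Sox5. It stood at 265, 269, 308, 207 and 281 CPM in the wild-type embryos and at 356, 352, 289, 299 and 327 CPM in the Lmx1a-/- embryos 1 to 5. Of the Lmx1a-/- libraries 5 lay above the wild-type mean and 3 above the highest wild-type library, which was embryo 3. The genotype means were 266 ± 37.2 (wild type) and 325 ± 30.2 CPM (Lmx1a-/-). The log2 fold change of 0.29 (SE 0.10, 95% interval 0.07 to 0.505) had an unadjusted p of 0.0135 and did not pass (edgeR FDR = 0.17). It did not pass in any alternative or with any embryo left out.

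Sox8, the other SoxE member, was the lowest of the 10, with 14 to 137 counts per library. It had 1.27, 0.992, 4.03, 1.5 and 2.7 CPM in the wild-type embryos and 2.66, 0.978, 0.477, 1.55 and 2.78 CPM in the Lmx1a-/- embryos. The highest value was that of wild-type embryo 3, and the interval of the log2 fold change was wide (-1.39 to 0.76, edgeR FDR = 0.813). Changes within these bounds, lower or higher, are compatible with the counts. Sox10, a gene of neural crest and oligodendrocytes that completes the group, reached 1.63 CPM at most.

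**Figure D3:**
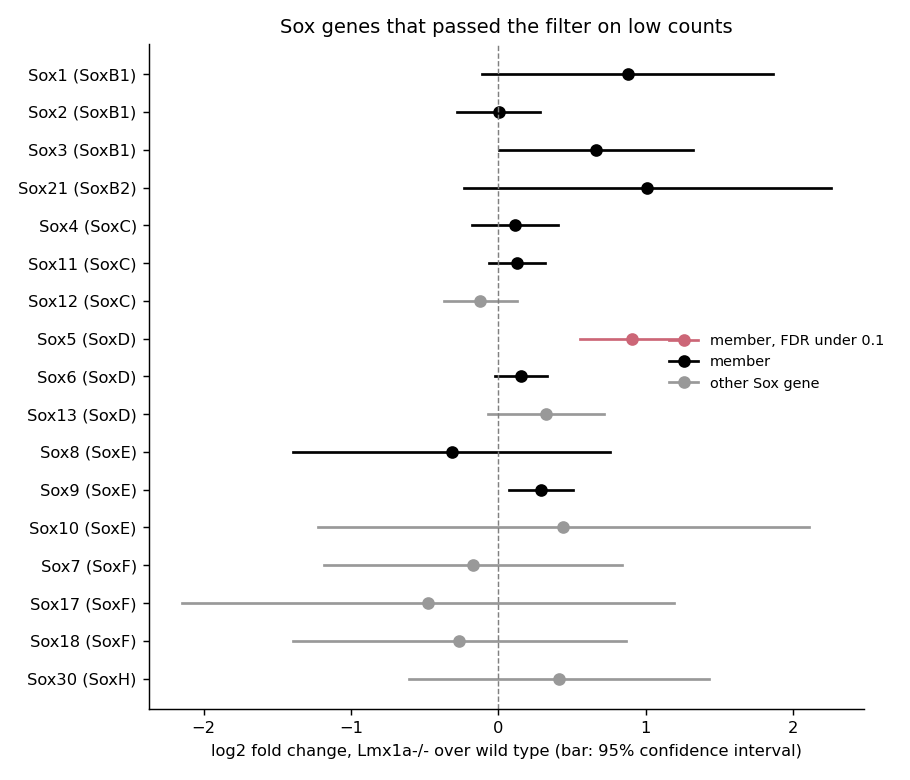
Log2 fold change of each tested Sox gene, Lmx1a-/- over wild type (horizontal axis), with its 95% confidence interval, grouped by Sox subfamily. The interval of Sox5 (red, 0.55 to 1.26) lies clear of 0. Those of Sox9 (0.07 to 0.505) and Sox3 (0.005 to 1.33) also lie above 0, although neither gene passed the FDR threshold. The interval of Sox2 is centered on 0, and those of Sox10 and Sox17 are the widest.

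In the SoxB1 group, Sox2 (GRCm38 chr3:34650405-34652461), the general neural progenitor factor, was level between genotypes. Wild-type embryos had 105, 125, 90.6, 84.9 and 101 CPM of Sox2, and Lmx1a-/- embryos had 109.7, 127, 103, 84.7 and 83.9 CPM. The means were 101 ± 15.6 and 102 ± 18 CPM. The log2 fold change was 0.003 with a 95% interval of -0.28 to 0.28 (edgeR FDR = 0.995), so that larger changes in either direction lie outside the interval. Sox2ot, the long transcript within which Sox2 lies on the same strand without a shared exon base, averaged 129 ± 31.9 and 91.6 ± 17.5 CPM in wild-type and mutant CH (log2 fold change -0.49, edgeR FDR = 0.164).

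Sox1 and Sox3 were less abundant and far more variable. Sox1 was at 10.4, 14.1, 21.6, 4.31 and 13.7 CPM in the wild-type embryos and at 26.1, 12.3, 8.14, 20.2 and 51.3 CPM in the Lmx1a-/- embryos 1 to 5. Lmx1a-/- embryo 5 was the highest library and Lmx1a-/- embryo 3 lay below all wild-type embryos but 1, so the genotypes overlapped widely. The log2 fold change of 0.88 (SE 0.46, 95% interval -0.11 to 1.86, edgeR FDR = 0.366) was 0.38 without Lmx1a-/- embryo 5. That embryo also had the highest level of Sox1ot, an overlapping transcript of the same strand without shared exon bases (44.1 CPM, against 2.49 to 17.8 CPM in the others).

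Sox3, on the X chromosome, had 3.55, 2.75, 5.29, 2.39 and 3.55 CPM in the wild-type embryos and 5.42, 9.84, 5.25, 4.13 and 3.41 CPM in the Lmx1a-/- embryos. Of the Lmx1a-/- embryos 4 lay above the wild-type mean of 3.5 CPM. The log2 fold change was 0.66 (SE 0.31, 95% interval 0.005 to 1.33), with an unadjusted p of 0.0485, and did not pass (edgeR FDR = 0.302). It was 0.37 without Lmx1a-/- embryo 2, -0.22 with the choroid plexus covariate, 0.415 with the Xist covariate and 0.648 in the libraries with Y-linked transcripts. For this X-linked gene too, genotype and sex cannot be told apart except through wild-type embryo 1.

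Sox21 (GRCm38 chr14:118233232-118237030), the SoxB2 member, had 6.35, 3.79, 23.1, 3.32 and 4.95 CPM in the wild-type embryos and 19.3, 7.83, 5.18, 15.9 and 36.3 CPM in the Lmx1a-/- embryos 1 to 5. Wild-type embryo 3 lay above every wild-type library and above 4 of the 5 Lmx1a-/- libraries. With all libraries the log2 fold change was 1.01 (SE 0.58, 95% interval -0.23 to 2.26, edgeR FDR = 0.417). Without wild-type embryo 3 it was 1.87 and passed (edgeR FDR = 0.0584), while without Lmx1a-/- embryo 5 it was 0.53 (edgeR FDR = 0.735). The call for Sox21 thus turned on 1 library. Gm4675, an opposite-strand gene that shares 18.8% of the Sox21 exon bases, averaged 0.472 ± 0.0687 and 1.23 ± 0.662 CPM in wild-type and mutant CH (edgeR FDR = 0.155). Sox14, the other SoxB2 gene, had 0 to 28 counts and was not tested.

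The SoxC members were abundant and did not pass. Sox11 had 1812, 1646, 1730.4, 1343 and 1679.7 CPM in the wild-type embryos and 1790.4, 1985, 1641, 1626 and 1945 CPM in the Lmx1a-/- embryos. Its log2 fold change was 0.13 (SE 0.09, 95% interval -0.06 to 0.32, edgeR FDR = 0.505), and its counts of 25886 to 58834 per library made it the most deeply counted member. Sox4 had 97.3, 83.5, 110.4, 85.3 and 64.9 CPM in the wild-type embryos and 106, 91.5, 79.7, 87.7 and 113 CPM in the Lmx1a-/- embryos. These values overlapped widely (log2 fold change 0.11, SE 0.13, 95% interval -0.18 to 0.40, edgeR FDR = 0.731). The ratio of Sox4 to Sox11 CPM was 0.0541 ± 0.0104 in wild-type and 0.0532 ± 0.00573 in Lmx1a-/- libraries. Sox12, the third SoxC gene, was at 60.4 ± 4.48 and 55.5 ± 9.44 CPM (edgeR FDR = 0.656). Sox4 counts carry a limit of their own, since the opposite-strand gene Gm26735 of the annotation spans 54.6% of its exon bases and has no values here.

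Sox7, Sox17 and Sox18, the SoxF genes of endothelium, had means of 0.739 to 2.3 CPM in either genotype and none passed (edgeR FDR of 0.818 to 0.9), and neither did any of the 9 endothelial markers. Sox30 was below 1.2 CPM throughout, Sox15 below 0.5 CPM, and Sry had no count in any library. Of the 10 Sox genes of the table beyond the members, 7 passed the filter and none passed the threshold.

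Levels of different genes were compared per length, as normalized CPM per kilobase of annotated exon. In wild-type CH the order was Sox11 (198 ± 21.5), Sox9 (64.3 ± 9.0), Sox2 (49.3 ± 7.61), Sox4 (18.4 ± 3.53), Sox6 (17.7 ± 1.67), Sox5 (3.72 ± 0.944), Sox1 (2.65 ± 1.3), Sox21 (2.19 ± 2.2), Sox3 (1.70 ± 0.543) and Sox8 (0.673 ± 0.404). Sox11 was above Sox9, Sox2 above Sox4, and Sox6 above Sox5 without overlap of their libraries in both genotypes. Sox9 exceeded Sox2 within each of the 10 libraries, although their ranges overlapped among wild-type embryos. Sox4 and Sox6 were not ordered, with Sox4 higher in 3 of 5 wild-type and 2 of 5 Lmx1a-/- libraries. Sox5 overlapped with Sox1, Sox1 with Sox21, and Sox21 with Sox3 in both genotypes, while Sox3 overlapped with Sox8 among wild-type embryos. The exon lengths of Sox5 (14376 bases) and Sox6 (14832 bases) sum exons of many transcripts, which can lower their level per length.

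**Figure D4:**
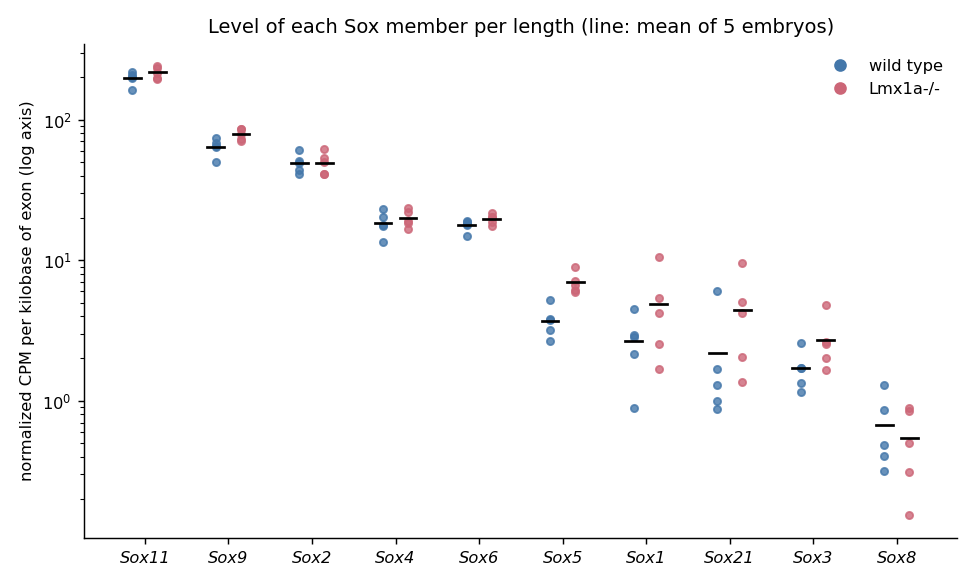
Level of each Sox member in normalized CPM per kilobase of annotated exon (vertical axis, log scale) in wild-type (blue) and Lmx1a-/- (red) libraries, with the mean as a black line. Sox11 is highest in both genotypes (198 and 216 on average), and the means fall in the same order in both.

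Embryo-to-embryo spread differed among members as well. The coefficient of variation in wild-type CH was 9.43% for Sox6, 10.9% for Sox11, 14% for Sox9 and 15.4% for Sox2, but 49% for Sox1, 60% for Sox8 and 101% for Sox21. To describe which members varied together, the genotype means were taken out of the log2 CPM and Pearson's r was computed over the 10 libraries, which share depth and dissection within each point. Of the 45 pairs 40 were positive, with a median r of 0.50. The highest were Sox8 with Sox21 (0.864), Sox6 with Sox9 (0.863), Sox1 with Sox21 (0.855) and Sox9 with Sox11 (0.829). For Sox2, r ran from -0.464 with Sox21, through 0.001 with Sox5, to 0.508 with Sox3.

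Members were set beside marker lists in the same way. The cortical neuroepithelium list, of which 2 of 6 genes rose in Lmx1a-/- CH (Emx2 and Nr2e1) and none fell, summed to 346 to 702 CPM in the wild-type libraries and to 618 to 863 CPM in the others. Its r was 0.841 with Sox9, 0.828 with Sox6, 0.768 with Sox21, 0.681 with Sox1, 0.677 with Sox11 and 0.667 with Sox5. The r was also positive with Sox8 (0.599), Sox3 (0.552) and Sox4 (0.539), but was 0.015 with Sox2. The choroid plexus list, with 5 of 15 tested genes lower and none higher, had an r of -0.459 with Sox5. The Cajal-Retzius cell list, with 4 of 9 tested genes lower and 1 higher, was at 367 to 572 CPM in the wild-type libraries and at 236 to 371 CPM in the others. The r of Sox5 was -0.562 with that list, -0.54 with the CH markers, 0.571 with endothelial markers and 0.11 with mesenchymal markers. Sox8 went with the list of oligodendrocyte precursor and crest genes (0.869), of which Pdgfra fell, as did Sox21 (0.737) and Sox1 (0.692) in their r. With 14 to 137 counts of Sox8 per library, its r rests on few reads. The part of these cell types in the differences of the Sox genes was not tested. The genes most like Sox5 over the 10 libraries were Ugcg (r = 0.953), Zeb2 (0.949) and Dleu2 (0.928), and those most like Sox2 were Aqr (0.957), Wnk2 (0.946) and Hipk1 (0.946), of 16716 genes compared. None of these 6 genes passed the threshold between genotypes.

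**Figure D5:**
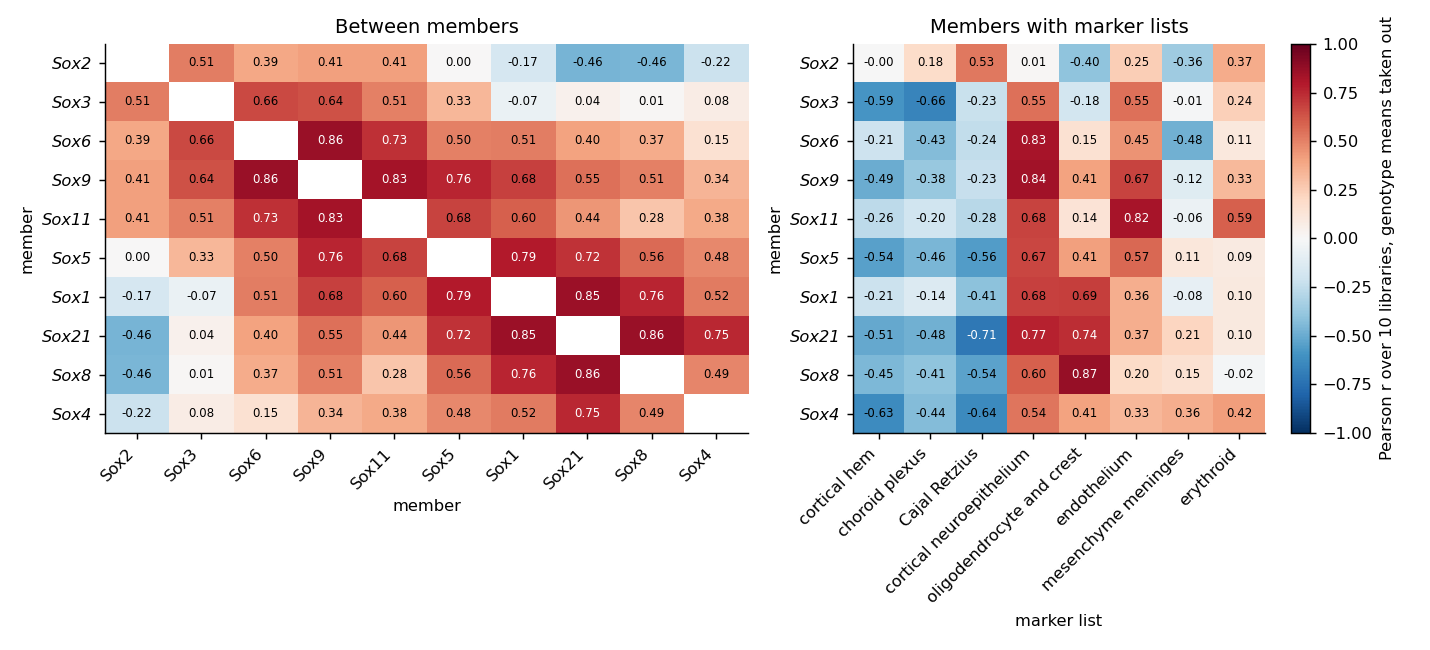
Pearson r over 10 libraries, with the genotype means taken out, between Sox members (left) and between members and the mean of each marker list (right), as printed in each cell and colored from blue (-1) to red (1). Sox9 and Sox6 go most with cortical neuroepithelium markers (0.84 and 0.83), and Sox2 does not (0.01).

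Genes that act with or below Sox proteins were read from 4 lists. Of the 8 cofactors, none passed in either direction (median log2 fold change 0.03), and those with the smallest p were Pax6 (0.37, edgeR FDR = 0.326), a partner of Sox2 in progenitors, Pou3f3 and Chd7. Of the 12 progenitor genes, which Sox2 and Sox9 accompany in radial glia, 2 rose and none fell. Vim, the intermediate filament of radial glia, rose from 671 ± 121 to 1223 ± 79.6 CPM (0.87 on the log2 scale, SE 0.11, edgeR FDR = 0.00183), and Gli3, a mediator of hedgehog signaling that patterns the dorsal telencephalon, rose from 446 ± 31.7 to 602 ± 56.2 CPM (0.43, SE 0.08, edgeR FDR = 0.012). Fabp7, a radial glial lipid carrier, had a log2 fold change of 0.345 (edgeR FDR = 0.113). The median of this list was 0.16.

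Of the 12 tested genes of the Sox9 target list, 1 rose and 1 fell, with a median log2 fold change of -0.004. Both encode cartilage-type collagens that Sox5, Sox6 and Sox9 activate in chondrocytes. Col9a3 rose from 2.79 ± 0.477 to 6.27 ± 1.56 CPM (1.17 on the log2 scale, SE 0.22, edgeR FDR = 0.016), and Col11a1 fell from 77 ± 9.22 to 46.2 ± 6.08 CPM (-0.74, SE 0.11, edgeR FDR = 0.00367). Col2a1, the main collagen of cartilage, had 330.5 ± 52.1 and 396 ± 45.2 CPM (edgeR FDR = 0.243). Of the 11 neuronal genes of the SoxC list none passed (median 0.02). Those with the smallest p were Igfbpl1 (-0.45, edgeR FDR = 0.113), Stmn2 (0.90, edgeR FDR = 0.219) and Prox1 (0.24, edgeR FDR = 0.336), which differ in sign.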

How the data were processed

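RNA of laser-captured CH was isolated with a PicoPure kit and made into libraries with a SMARTer mRNA kit, 1 per embryo. According to the study's methods and the submitters' processing notes, the authors checked reads with FastQC 0.11.8, trimmed with Trimmomatic, used STAR 2.7.1a for alignment to GRCm38 and made the deposited raw counts per Ensembl gene with HTSeq 0.11.2, whose strand setting is not given in the sources used here. Of 52508 rows, 281 exact repeats were dropped. Positions and exon lengths are from GENCODE M21. Genes were tested in R 4.3.3 with edgeR 4.0.16 (quasi-likelihood test, legacy = TRUE, TMM scaling, genotype as the only term, all 10 libraries), after a filter of at least 10 counts in at least 3 libraries and with FDR under 0.1, the filter and threshold of the study. The SE is the size of the log2 fold change divided by the square root of F. Correlations used log2 CPM with a prior count of 2.

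Libraries of a genotype are separate embryos. The embryo numbers were not used as pairs in the reported fit. With the genotype means taken out, the correlation of same-numbered libraries lay between -0.099 and 0.013. Such values cannot show whether embryos shared a litter. The study compares mutants with wild-type littermates, but the sample labels do not give the litter. The genes named are the 10 members, the other Sox genes, genes that overlap a member, of each list the genes past the threshold and the 3 with the smallest p, and the 3 genes most correlated with Sox5 and Sox2 among those of at least 1 CPM. Marker genes beside results are from fixed lists. Members and lists were chosen with earlier results of these data known. Alternatives were DESeq2 1.42.0, other edgeR tests, scalings and filters, covariates, subsets and each embryo left out. The fits were tested on simulated counts. Some genes of the marker lists are not reported here by name.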

Additional observations from a re-analysis of the deposited data

Results flagged for a closer look

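Among the 20 groups formed by 10 members and 2 genotypes, 1 library stood far from the other 4 of its group. Sox21 was at 23.1 CPM in wild-type embryo 3, with the other wild-type embryos at 3.32 to 6.35 CPM, and the gap took a share of 0.847 of the range of the group (Dixon's critical value for 5 samples is 0.71). Chance flags about 1 in 20 such groups. The same library had the highest wild-type levels of Sox8 (4.03 CPM) and Sox1 (21.6 CPM), whose gaps did not reach the critical value.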

How the results depend on the processing

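No member was called lower in any alternative, and Sox5 was called higher in each except those with the Xist covariate or the choroid plexus covariate. With either covariate 0 members were higher (Sox5 log2 fold change 1.14, edgeR FDR = 0.269, and 0.59, edgeR FDR = 0.997). Leaving out 1 embryo gave 1 to 2 members higher, the second being Sox21 without wild-type embryo 3 (1.87). Over all genes, 870 passed as reported, 1766 with DESeq2, 1360 with the likelihood ratio test, 448 at an FDR under 0.05, 130 in the 6 libraries with Y-linked transcripts, 28 with the Xist covariate and 4 with the choroid plexus covariate. Leaving out 1 embryo gave 451 (without Lmx1a-/- embryo 4) to 1059. With the replicate number as a block, 601 genes passed and Sox5 had a log2 fold change of 0.93 (edgeR FDR = 0.0165). The block changed no call among the members, and the numbers pair no samples by any label. Both covariates follow genotype, the cause of the lost calls was not tested, and genes under a few CPM, such as Sox8, have wide intervals.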
